A study of Mus musculus with 5 samples.

Results

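Of 56748 genes in the table of counts and 17724 tested, 7 genes of purinergic signalling, taken by symbol, are described here in CD11b-positive brain cells. All 7 passed the filter on low counts. They are the receptor genes P2ry12, P2ry13, P2ry6, P2rx4, P2rx7 and Gpr34 and the ectoenzyme gene Entpd1. The choice did not use their values in these libraries, although it was made with earlier results of the same data known. RNA was sequenced from 3 mice of the genotype 5xFAD/Cd5l tg/wt (replicates 1, 2 and 3, called Cd5l-transgenic below) and from 2 mice of the genotype 5xFAD (replicates 1 and 3), all 7 months old. Both genotypes carry the 5xFAD transgenes, mutant human amyloid precursor protein and presenilin genes that lead to amyloid plaques. The Cd5l-transgenic mice also express mouse CD5L, a secreted scavenger-receptor-family protein of macrophages, from the human PDGF-B promoter, a promoter commonly used to drive transgenes in neurons. The cells came from brain without the cerebellum and were selected for CD11b, an integrin that microglia and other myeloid cells carry on their surface. The sources used here do not give the sex of the mice or how the cells were isolated, and wild-type mice were not analysed here.

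ATP, ADP and UDP leave damaged or active cells and act on neighbouring cells through P2Y receptors, which couple to G proteins, and P2X receptors, which are ion channels opened by ATP. Microglia use this system to sense injury: P2RY12 and P2RY13 respond to ADP, P2RY6 responds to UDP, P2RX4 and P2RX7 respond to ATP, and ENTPD1 (CD39) degrades ATP and ADP to AMP at the cell surface. Extension of microglial processes towards injury depends on P2RY12, whose transcript is a standard marker of homeostatic microglia and is known to be low in microglia around plaques. GPR34 is related to the P2Y receptors in sequence and is activated by lysophosphatidylserine.

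The genes lie in a few places of the genome. P2ry12 (ENSMUSG00000036353, chromosome 3, 59123693 to 59170292) and P2ry13 (ENSMUSG00000036362, chromosome 3, 59115313 to 59118303) are neighbours on the minus strand in GRCm39, inside the span of Med12l on the plus strand. P2rx7 (ENSMUSG00000029468, chromosome 5, 122781974 to 122829495) and P2rx4 (ENSMUSG00000029470, chromosome 5, 122845607 to 122867801) lie next to each other on the plus strand. Gpr34 (ENSMUSG00000040229, chromosome X, 13498328 to 13507097, plus strand) lies inside the span of Cask on the minus strand. P2ry6 (ENSMUSG00000048779, chromosome 7, 100586837 to 100623856, minus strand) has another P2Y gene, P2ry2, as a neighbour on the same strand, and the predicted gene Gm44545 lies within its span on the plus strand. Entpd1 (ENSMUSG00000048120, chromosome 19, 40600810 to 40730046, plus strand) holds 4 listed pseudogenes and non-coding genes within its span.

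The RefSeq promoter table (GRCm38.p6, an older build than that of the counts) held 7 windows for 5 of the 7 genes. The windows of P2ry12 and P2rx4 are shown because these genes varied most between mice and in opposite directions, and that of P2ry13 because it neighbours P2ry12. Each covers the 250 bases before the annotated start, 5′ to 3′ on the strand of the gene, and capitals mark GGAAGT, the core letters of a motif of ETS factors such as PU.1, searched on both strands. The window of P2ry12 is chr3:59262986-59263235 on the minus strand, that of P2ry13 is chr3:59210883-59211132 on the minus strand, and that of P2rx4 is chr5:122707294-122707543 on the plus strand.
P2ry12: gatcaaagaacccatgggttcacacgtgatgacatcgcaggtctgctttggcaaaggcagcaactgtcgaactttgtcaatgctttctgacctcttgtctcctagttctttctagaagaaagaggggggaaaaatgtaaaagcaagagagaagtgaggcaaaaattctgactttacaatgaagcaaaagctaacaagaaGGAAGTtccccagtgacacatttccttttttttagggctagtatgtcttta
P2ry13: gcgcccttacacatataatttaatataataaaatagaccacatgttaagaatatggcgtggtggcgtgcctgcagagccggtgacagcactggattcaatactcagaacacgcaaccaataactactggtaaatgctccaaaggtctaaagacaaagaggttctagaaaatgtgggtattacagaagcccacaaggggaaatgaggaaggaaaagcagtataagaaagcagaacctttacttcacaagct
P2rx4: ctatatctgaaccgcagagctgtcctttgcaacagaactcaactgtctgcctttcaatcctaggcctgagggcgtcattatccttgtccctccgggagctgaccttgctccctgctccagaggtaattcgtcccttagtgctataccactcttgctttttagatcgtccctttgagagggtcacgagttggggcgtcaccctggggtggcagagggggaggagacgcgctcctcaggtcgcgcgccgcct
The motif was found in 1 of the 7 windows, that of P2ry12, and in 19.7% of the 32851 windows of the same length in the table.

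The libraries held between 30798377 and 34794617 counts. Cd5l, which checks the labels, had 7230, 10680 and 6438 counts in the Cd5l-transgenic libraries, against 45 and 9 counts in the 5xFAD libraries, and transgene and endogenous reads fall on the same gene. Defining microglial markers were abundant in every library: 9 genes of that list, among them Cx3cr1, Tmem119 and Csf1r, summed to between 16190 and 17430 TMM-scaled CPM in Cd5l-transgenic libraries and to 16450 and 15730 CPM in 5xFAD libraries. Markers of other cells, other myeloid cells included, were present at lower levels and differed between mice. Monocyte markers (8 genes) summed to 203.3, 300.1 and 176.8 CPM in Cd5l-transgenic libraries, against 139 and 143.1 CPM in 5xFAD libraries. Neutrophil markers (8 genes) summed to 194.8, 150 and 72.56 CPM, against 56.93 and 75.62 CPM. Those of border-associated macrophages (10 genes) summed to 1137, 845.2 and 1145 CPM, against 842.2 and 966.7 CPM. The 8 oligodendrocyte markers summed to 1077, 4239 and 365.4 CPM in Cd5l-transgenic replicates 1, 2 and 3, against 367 and 338.9 CPM in 5xFAD replicates 1 and 3. The 8 choroid plexus and ependymal markers summed to between 424.6 and 988.5 CPM in the Cd5l-transgenic libraries, against 683.4 and 4216 CPM in 5xFAD replicates 1 and 3. The 14 genes of the plaque-associated state summed to 23940, 23130 and 18790 CPM in Cd5l-transgenic libraries, against 37710 and 18950 CPM in 5xFAD replicates 1 and 3, so that the 5xFAD mice differed from each other more than the genotypes did. No marker of these lists was at 0 in all libraries.

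Per kilobase of gene length, the scale on which levels of different genes can be compared, P2ry12 and Gpr34 were the most abundant of the 7 genes and P2rx4 the least. Over all 5 libraries the mean levels were 563 CPM per kilobase for P2ry12, 484 for Gpr34, 233 for P2ry13, 118 for Entpd1, 49.0 for P2ry6, 35.2 for P2rx7 and 17.9 for P2rx4. Each gene lay above the next in this order in 5 of 5 libraries, except that P2ry12 lay above Gpr34 in 4 of 5. The ranges of P2ry12 (458.9 to 635.1 CPM per kilobase) and Gpr34 (436.7 to 532.1) overlapped, while no other neighbours in the order did. On the same scale P2ry12 ranked 55 and Gpr34 ranked 69 among the 17724 tested genes, and P2rx4 ranked 2541.

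The P2Y and P2X genes among the 7 made up nearly all RNA of the genes named P2Y or P2X in the sample. P2ry12, P2ry13 and P2ry6 together took between 99.28% and 99.52% of the summed CPM per kilobase of the 9 P2Y receptor genes, and P2rx4 and P2rx7 took between 94.32% and 96.88% of that of the 7 P2X genes. The most abundant other P2Y gene was P2ry10b, at a mean of 3.09 CPM per kilobase over 5 libraries, and the most abundant other P2X gene was P2rx1, the ATP-gated channel of platelets and smooth muscle, at 1.47. Reads of P2ry10b and its paralog P2ry10 may have been split between them by the counting. Entpd1 stood far above Nt5e (CD73), a cell-surface enzyme that turns AMP into adenosine, which had a mean of 0.120 CPM per kilobase. Entpd1 did not stand above all listed enzymes of its kind in every library. Enpp2 had a mean of 85.3 CPM per kilobase, and in 5xFAD replicate 3 it had 245.5, against 120.7 for Entpd1. Levels per kilobase rest on the gene lengths listed by the authors, which need not match the transcripts these cells use.

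**Figure D1:**
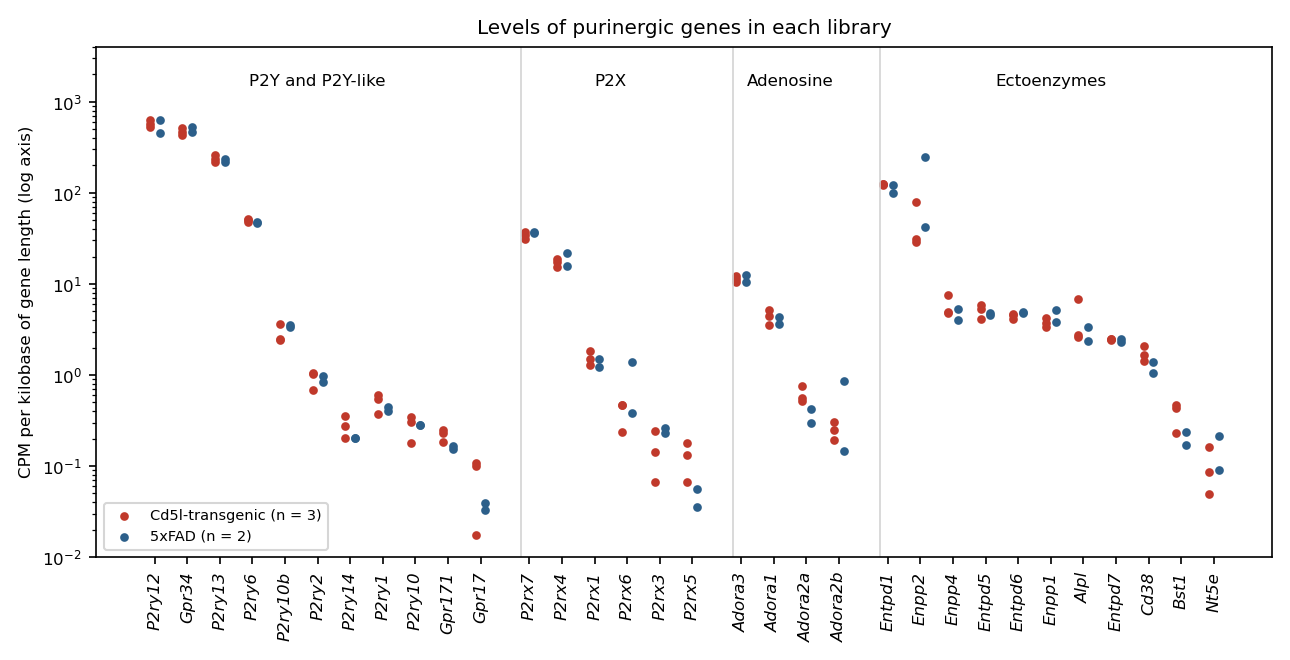
Level of each purinergic gene in CPM per kilobase of gene length (log axis), 1 point per library, Cd5l-transgenic (n = 3) left of 5xFAD (n = 2) for each gene, grouped by receptor class and enzymes. P2ry12 and Gpr34 stand highest, at means of 563 and 484, and Nt5e stands near the bottom at 0.120. Libraries with no count are not drawn.

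The comparison asked whether the genes differed in cells of 5xFAD mice with forced CD5L. None of the 7 passed the edgeR quasi-likelihood test (adjusted p = 0.999 for each, n = 3 against 2 mice), nor did any of all 17724 tested genes, 0.0% called in either direction. At an unadjusted p under 0.05 edgeR called 475 genes (2.68%), of which 0 were among the 7, and the Wald test of DESeq2 called 11 genes (0.0621%) after adjustment, again with 0 of the 7. Of the 7 genes, 4 had a log2 fold change above 0 and 3 below, with a median of 0.063, where 42.9% of all tested genes lay above 0 and their median was -0.027. Cd5l itself was among the 11 genes called by the Wald test of DESeq2 (adjusted p = 5.79e-19). In edgeR it did not pass (log2 fold change 8.23, adjusted p = 0.765). The lack of calls thus does not show that the genes were unchanged. The 95% interval of each gene gives the sizes of change that these 5 mice do not resolve. In RNA of bulk cells, fewer cells of a type and less RNA per cell cannot be told apart.

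P2ry12, the ADP receptor behind the chemotactic response of microglial processes, stood at 1442, 1337 and 1598 CPM in Cd5l-transgenic replicates 1, 2 and 3, against 1168 and 1617 CPM in 5xFAD replicates 1 and 3. The groups overlapped: both the lowest and the highest value belonged to 5xFAD mice, with the Cd5l-transgenic mice between them. The means were 1459 ± 131 CPM (SD, n = 3) in Cd5l-transgenic and 1393 ± 317 CPM (SD, n = 2) in 5xFAD mice, for a log2 fold change of 0.067 (SE 0.17), whose 95% interval ran from -0.34 to 0.48, or 0.787-fold to 1.39-fold. The sign rested on 5xFAD replicate 1, without which the log2 fold change was -0.15, and without 5xFAD replicate 3 it was 0.32.

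P2ry13, the other ADP receptor of microglia, varied less. Its values were 591.8, 556 and 650.9 CPM in Cd5l-transgenic libraries, against 557.8 and 589.9 CPM in 5xFAD libraries. The 5xFAD values fell within the Cd5l-transgenic range, and the log2 fold change was 0.063 (SE 0.10, 95% interval -0.19 to 0.32). The ratio of P2ry12 to P2ry13 in CPM was 2.44, 2.40 and 2.46 in the Cd5l-transgenic libraries, against 2.10 in 5xFAD replicate 1 and 2.74 in 5xFAD replicate 3. It was thus nearly constant among the Cd5l-transgenic mice and differed between the 5xFAD mice, whose values lay on either side.

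P2ry6, the UDP receptor linked to phagocytosis by microglia, was the steadiest of the genes. It stood at 146.1, 137.3 and 149.6 CPM in Cd5l-transgenic libraries, against 136.5 and 138.3 CPM in 5xFAD libraries. Cd5l-transgenic replicate 2 lay between the 5xFAD values and the other Cd5l-transgenic libraries lay above both. Its log2 fold change was 0.071 (SE 0.072), with a 95% interval from 0.930-fold to 1.19-fold, the narrowest of the 7.

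Gpr34, the lysophosphatidylserine receptor, had 976.5, 912.8 and 1078 CPM in Cd5l-transgenic libraries, against 980.4 and 1112 CPM in 5xFAD libraries. The groups overlapped, with the lowest value in Cd5l-transgenic replicate 2 and the highest in 5xFAD replicate 3. The log2 fold change was -0.081 (SE 0.12, 95% interval -0.37 to 0.21), and without 5xFAD replicate 3 it was 0.011.

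P2rx4, an ATP-gated channel found on lysosomes and at the cell surface and known to be raised in reactive microglia, ran against P2ry12. It stood at 133, 123.1 and 108.4 CPM in Cd5l-transgenic replicates 1, 2 and 3, against 153.2 and 111.7 CPM in 5xFAD replicates 1 and 3. The highest value was that of 5xFAD replicate 1, the library lowest in P2ry12, and the lowest values were those of Cd5l-transgenic replicate 3 and 5xFAD replicate 3, the libraries highest in P2ry12. The log2 fold change was -0.12 (SE 0.16, 95% interval -0.51 to 0.26), with a sign that rested on 5xFAD replicate 1: without it the value was 0.12, and without 5xFAD replicate 3 it was -0.34.

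P2rx7, the channel that opens at high ATP and drives release of interleukin-1 through the inflammasome, was even in the 5xFAD mice. Values of 203.3, 186.5 and 220.3 CPM in Cd5l-transgenic libraries stood against 221.2 and 219.1 CPM in 5xFAD libraries. Cd5l-transgenic replicate 3 lay between the 5xFAD values, and the other Cd5l-transgenic libraries lay below both. The log2 fold change was -0.11 (SE 0.093, 95% interval -0.34 to 0.11). P2rx7 and P2rx4, neighbours on chromosome 5, did not keep a fixed ratio, at 1.53, 1.52 and 2.03 in Cd5l-transgenic libraries, against 1.44 and 1.96 in 5xFAD libraries, so that replicate 3 of each genotype was highest.

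Entpd1 was the only one of the 7 genes whose groups did not overlap. It stood at 695.4, 682.9 and 691.4 CPM in Cd5l-transgenic libraries, against 552 and 673.3 CPM in 5xFAD libraries, and all 3 Cd5l-transgenic mice lay above both 5xFAD mice, as they did for 7.2% of all tested genes. The groups lay apart the other way for 8.69% of all genes and for 0 of the 7, and in either direction for 15.9% of all genes and 1 of the 7. The Cd5l-transgenic mice were close together, at 689.9 ± 6.35 CPM (SD, n = 3), while the 5xFAD mice differed, at 612.7 ± 85.8 CPM (SD, n = 2). The log2 fold change was 0.17 (SE 0.11, 95% interval -0.10 to 0.45). It was 0.037 without 5xFAD replicate 1, the library furthest from the others, and 0.32 without 5xFAD replicate 3. Entpd1 is also expressed by endothelial cells, whose 8 markers summed to 638.3, 1180 and 676.6 CPM in Cd5l-transgenic libraries, against 605.3 and 571.9 CPM in 5xFAD libraries. Of these 8 markers 5 lay higher in all Cd5l-transgenic libraries and none was at 0. The part of endothelial cells, or of myeloid cells other than microglia, in the Entpd1 difference was not tested.

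**Figure D2:**
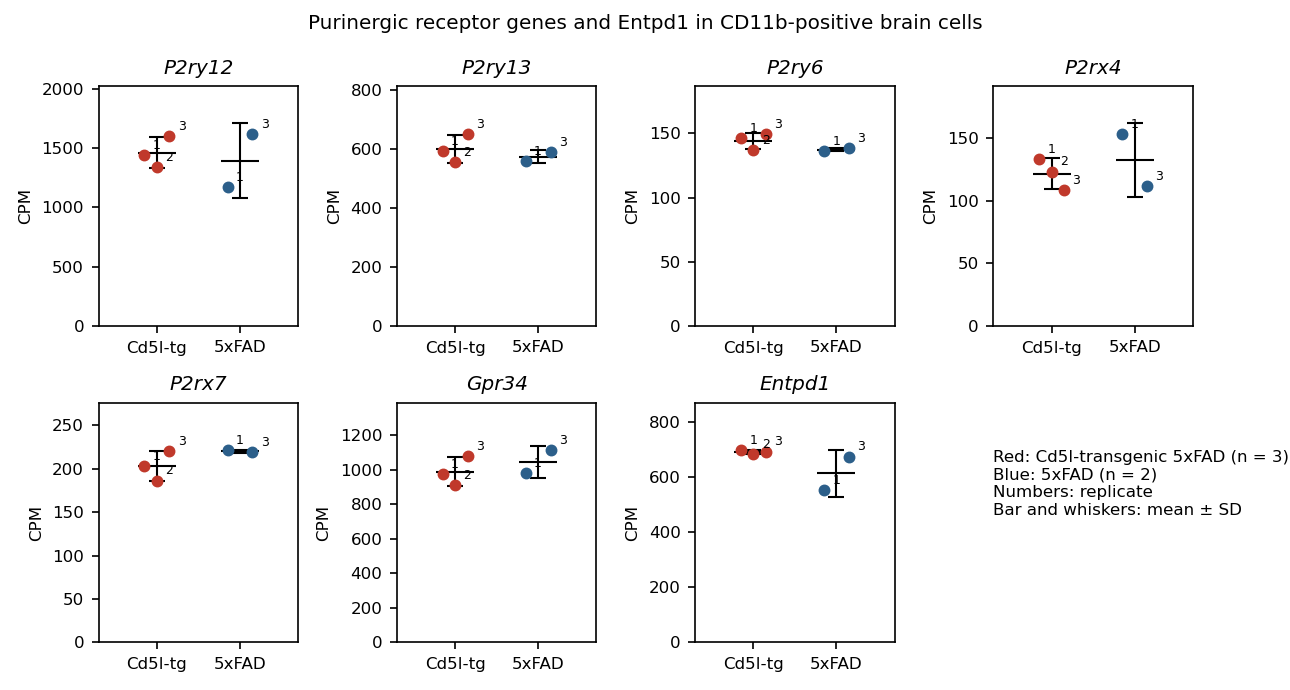
CPM of the 7 genes in each library (points, numbered by replicate), Cd5l-transgenic mice (n = 3) left of 5xFAD mice (n = 2), with mean and SD as bar and whiskers and each axis starting at 0. The 5xFAD mice lie far apart for P2ry12, P2rx4 and Entpd1 and close together for P2ry6 and P2rx7, and only the Entpd1 values of the genotypes do not overlap.

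**Figure D3:**
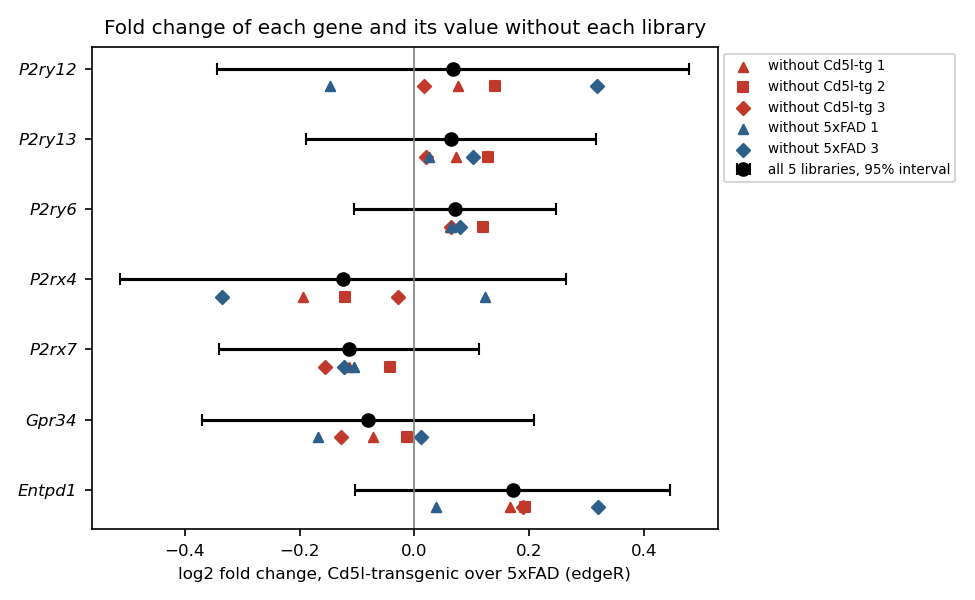
Log2 fold change of each gene, Cd5l-transgenic over 5xFAD, in edgeR (black point) with its 95% interval (bar) and the value with each library left out (coloured symbols below the bar). All 7 intervals include 0, and leaving out 5xFAD replicate 1 moves P2ry12 to -0.15 and P2rx4 to 0.12.

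Scaling to 10 pan-microglial genes turned the sign of P2ry12, whose value then lay close to 0, and left the other 6 signs in place. With library sizes set to the summed counts of 10 pan-microglial genes (Csf1r, Itgam, Aif1, C1qa, C1qb, C1qc, Ctss, Laptm5, Fcer1g and Tyrobp), the log2 fold change was -0.0047 for P2ry12, 0.0062 for P2ry13, 0.016 for P2ry6, -0.14 for Gpr34, -0.16 for P2rx4, -0.17 for P2rx7 and 0.11 for Entpd1. None passed. Set against the same genes, Entpd1 had 21.9, 22.54 and 22.92 CPM per 1000 CPM of pan-microglial RNA in Cd5l-transgenic libraries, against 17.25 and 24.48 in 5xFAD libraries. On that scale the groups of Entpd1 overlapped as well. The 10 genes summed to 31740, 30300 and 30160 CPM in Cd5l-transgenic libraries, against 31990 and 27500 CPM in 5xFAD replicates 1 and 3. The 9 microglial markers differed less between those 5xFAD replicates, at 16450 and 15730 CPM. How well the 10 genes measure microglial content was not tested.

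For each of the 7 genes the largest fold between mice of 1 genotype exceeded the fold between the genotype means. That comparison sets extremes against means, and the share of all genes for which it holds was not counted. It is thus not given as a trait of the 7. Over the 5 libraries the coefficient of variation was 14.4% for P2rx4, 13.1% for P2ry12, 9.17% for Entpd1, 8.04% for Gpr34, 7.19% for P2rx7, 6.52% for P2ry13 and 4.17% for P2ry6. Among the 2086 genes that averaged 100 CPM or more the middle value was 6.92%, with quartiles at 4.87% and 9.85%. Counting error was small beside this: the 95% Poisson half-width for the lowest count of any of the 7 genes, in P2rx4, was 3.29%. Between 5xFAD replicates 1 and 3 the ratio was 0.723 for P2ry12, 0.820 for Entpd1, 0.882 for Gpr34, 0.946 for P2ry13, 0.986 for P2ry6, 1.01 for P2rx7 and 1.37 for P2rx4, against a median of 1.05 over the same 2086 genes. The lowest and highest Cd5l-transgenic mice differed 1.02-fold for Entpd1 and between 1.09-fold and 1.23-fold for the other 6 genes. Over the same 2086 genes the median was 1.13-fold.

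5xFAD replicate 1, the library lowest in P2ry12 and Entpd1 and highest in P2rx4, was also the highest in the list of the plaque-associated state. That list of 14 genes had a median deviation from the gene means of 0.59 on the log2 scale in 5xFAD replicate 1, the only library above 0. It stood at -0.022, -0.12 and -0.21 in Cd5l-transgenic replicates 1, 2 and 3, and at -0.21 in 5xFAD replicate 3. In 5xFAD replicate 1 P2ry12 deviated by -0.28, Entpd1 by -0.25 and P2rx4 by 0.29. In Cd5l-transgenic replicates 1, 2 and 3 and 5xFAD replicate 3, P2ry12 deviated by 0.02, -0.09, 0.168 and 0.185. Entpd1 deviated there by 0.083, 0.057, 0.074 and 0.036, and P2rx4 by 0.091, -0.021, -0.204 and -0.161. The 11 other homeostatic genes deviated by a median of -0.106 in 5xFAD replicate 1. Their medians were 0.088, -0.02 and 0.026 in Cd5l-transgenic libraries and -0.032 in 5xFAD replicate 3. Single genes of these 11 went both ways in 5xFAD replicate 1. Fcrls (2681 CPM) and Olfml3 (1501 CPM) were at their highest there. Csf1r (5998 CPM), Siglech (737.2 CPM), Tmem119 (874 CPM), Selplg (1233 CPM), Slc2a5 (203.9 CPM) and Crybb1 (48.01 CPM) were at their lowest. Cx3cr1, Sall1 and Jun were at neither end. The part of the plaque-associated state in these values was not tested.

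**Figure D4:**
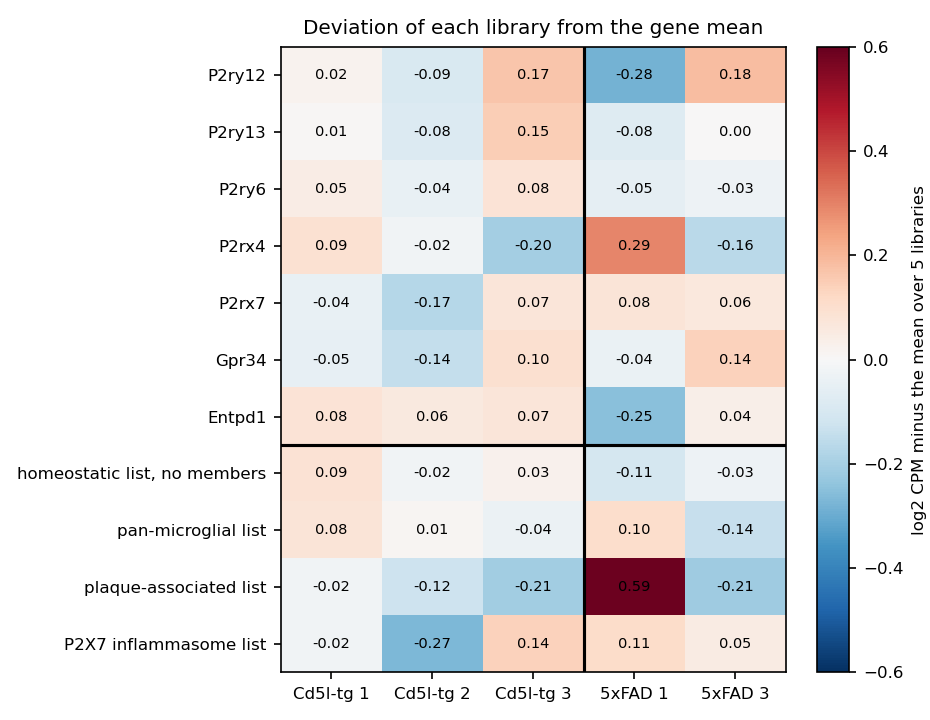
Deviation of each library from the gene mean over 5 libraries, in log2 CPM, for the 7 genes (upper rows) and as the median over 4 gene lists (lower rows), Cd5l-transgenic libraries left of 5xFAD libraries. 5xFAD replicate 1 is low in P2ry12 (-0.28) and Entpd1 (-0.25), high in P2rx4 (0.29) and high in the plaque-associated list (0.59).

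The 7 genes did not share a single pattern across mice. As a measure of likeness, the root mean square difference of centred log2 CPM over 5 libraries was taken against 10439 other genes of at least 5 CPM. Among the 7, the closest pair was P2ry13 and P2ry6 (0.043), and the most distant was P2ry12 and P2rx4 (0.347). P2ry12 was 0.107 from Entpd1, 0.121 from Gpr34 and 0.124 from P2ry13. The genes closest to P2ry12 were Clec4a3 (0.019), Sass6 and Zfp955a, those closest to P2rx4 were Cyb5r1 (0.021), Arhgap26 and Bri3bp, and those closest to Entpd1 were Armh3 (0.022), Zfp983 and Abitram. For P2ry13 they were Zfp354a (0.012), Kctd20 and Parp9, and for P2ry6 Ifi35 (0.010), Csk and Zfp282. Rsrc2 (0.0095), Arrdc1 and Mfsd4b4 were closest to P2rx7, and Ddx5 (0.015), Ing3 and Zfand6 to Gpr34. These distances are a description of 5 libraries and carry no test.

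Overlapping genes could have taken reads from, or given reads to, some of the 7, since the sources used here do not say whether the counting used strand. Med12l, a subunit gene of the mediator complex whose span holds P2ry12 and P2ry13, stood at 52.3, 40.9 and 53.9 CPM in Cd5l-transgenic libraries, against 42.9 and 52.6 CPM in 5xFAD libraries (log2 fold change 0.038, SE 0.15). Med12l and P2ry12 both stood lowest in Cd5l-transgenic replicate 2 and 5xFAD replicate 1, in the other order. The ratio of P2ry12 to Med12l was between 27.6 and 32.7 in Cd5l-transgenic libraries, and 27.2 and 30.8 in 5xFAD libraries. Cask, a synaptic scaffold gene around Gpr34, had 56.7, 49.1 and 52.6 CPM in Cd5l-transgenic libraries, against 49.6 and 59.8 CPM in 5xFAD libraries (log2 fold change -0.051, SE 0.11). The ratio of Gpr34 to Cask was 17.2, 18.6 and 20.5 in Cd5l-transgenic libraries, against 19.8 and 18.6 in 5xFAD libraries. Genes that overlap P2ry6, P2rx7 and Entpd1 held at most 35 counts in any library. Whether reads were exchanged between overlapping genes was not tested.

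Of the other listed receptors, none passed in edgeR in either direction and most were scarce. Of 11 other P2Y and P2Y-like genes 7 were tested, 5 above 0 and 2 below, with a median log2 fold change of 0.27, which turned to -0.25 when genes had to reach 5 CPM in 2 libraries. P2ry10b had 8.50, 8.66 and 12.4 CPM in Cd5l-transgenic libraries, against 11.8 and 12.2 CPM in 5xFAD libraries, P2ry2, a receptor of ATP and UTP, a log2 fold change of 0.020 (SE 0.29), and P2ry14, a receptor of UDP-sugars, one of 0.45 (SE 0.33). The 3 tested of 5 other P2X genes had a median of -0.71, or 0.18 without 5xFAD replicate 3, with P2rx1 at 0.18 (SE 0.26), P2rx6 at -1.18 (SE 0.61) and P2rx3, the channel of sensory neurons, at -0.71 (SE 0.58). P2rx6 stood at 0.938 to 1.88 CPM in Cd5l-transgenic libraries, against 1.53 and 5.53 CPM in 5xFAD replicates 1 and 3, the last being highest in choroid plexus and ependymal markers. The part of those cells in it was not tested.

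The 4 adenosine receptor genes, which sense the end product of ATP breakdown, had a median log2 fold change of 0.059, or 0.33 without 5xFAD replicate 3, with 0 past the test. Adora3 was the most abundant, at 42.5, 38.7 and 45.7 CPM in Cd5l-transgenic libraries, against 38.7 and 46.9 CPM in 5xFAD libraries (log2 fold change -0.017, SE 0.12). Adora1 stood at a log2 fold change of 0.13 (SE 0.18) and Adora2a at 0.78 (SE 0.36), the last at 1.60 to 2.32 CPM in Cd5l-transgenic libraries, against 1.29 and 0.903 CPM in 5xFAD libraries.

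Among 15 other genes of ectonucleotidase families and related enzymes 11 were tested, 6 above 0 and 5 below, with 0 past the test. Their median was 0.033, or -0.081 without Cd5l-transgenic replicate 2 and -0.13 without a low-count filter. Enpp2 (autotaxin), the most abundant in CPM, is also a gene of the choroid plexus list, whose sums include its CPM. It stood at 167, 457.5 and 177.9 CPM in Cd5l-transgenic libraries, against 242.5 and 1419 CPM in 5xFAD replicates 1 and 3. Log2 fold changes were -0.25 (SE 0.16) for Enpp1, a nucleotide pyrophosphatase, and 0.15 (SE 0.16) for Entpd5. The 13 genes of nucleotide release and nucleoside handling had a median of -0.048, or 0.025 without 5xFAD replicate 3, with 5 above 0, 8 below and 0 past the test. In that list Slc29a3, a nucleoside transporter of lysosomes, stood at 430, 391.5 and 445.2 CPM in Cd5l-transgenic libraries, against 365.7 and 408.4 CPM in 5xFAD libraries (log2 fold change 0.13, SE 0.10), the transporter Slc29a1 at -0.066 and Pnp, purine nucleoside phosphorylase, at -0.013.

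Genes that act downstream of P2RY12 were the most even of the lists. The 10 effectors, among them Gi subunits, potassium channels and integrin adaptors, had log2 fold changes from -0.064 to 0.10 with a median of 0.031, or -0.019 without 5xFAD replicate 3, and 0 past the test. Tln1 (talin) stood at 0.020 (SE 0.12) and Gnai2 at 0.056 (SE 0.096). Itgb1, the beta-1 integrin, had 421.1, 419.4 and 426.5 CPM in Cd5l-transgenic libraries, against 399.2 and 390.7 CPM in 5xFAD libraries (log2 fold change 0.097, SE 0.077), without overlap. The groups lay apart in that direction for 1 of the 10 effectors, where 7.2% of all tested genes did so.

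Where 57.1% of all tested genes lay below 0, the 10 genes listed for the P2RX7 inflammasome and interleukins lay 9 below and 1 above. Their median was -0.11, with 0 past the test. The median was -0.00019 without Cd5l-transgenic replicate 2 and -0.019 with the replicate number as a block. Txnip, a regulator of the redox protein thioredoxin, had a log2 fold change of -0.16 (SE 0.15). Il1b stood at 205, 194 and 397.5 CPM in Cd5l-transgenic replicates 1, 2 and 3, against 428.6 and 382.8 CPM in 5xFAD libraries, and Il1a at 137, 119.9 and 350.1 CPM, against 258.8 and 286.4 CPM. Cd5l-transgenic replicates 1 and 2 were low in both genes, while replicate 3 lay within the 5xFAD values in Il1b and above them in Il1a. The 12 dissociation and immediate early genes ran alike, at 12210, 10990 and 16900 CPM in Cd5l-transgenic libraries, against 16830 and 16410 CPM in 5xFAD libraries, and their part in the interleukin values was not tested. P2rx7 was also lowest in Cd5l-transgenic replicates 1 and 2, by a smaller margin.

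**Figure D5:**
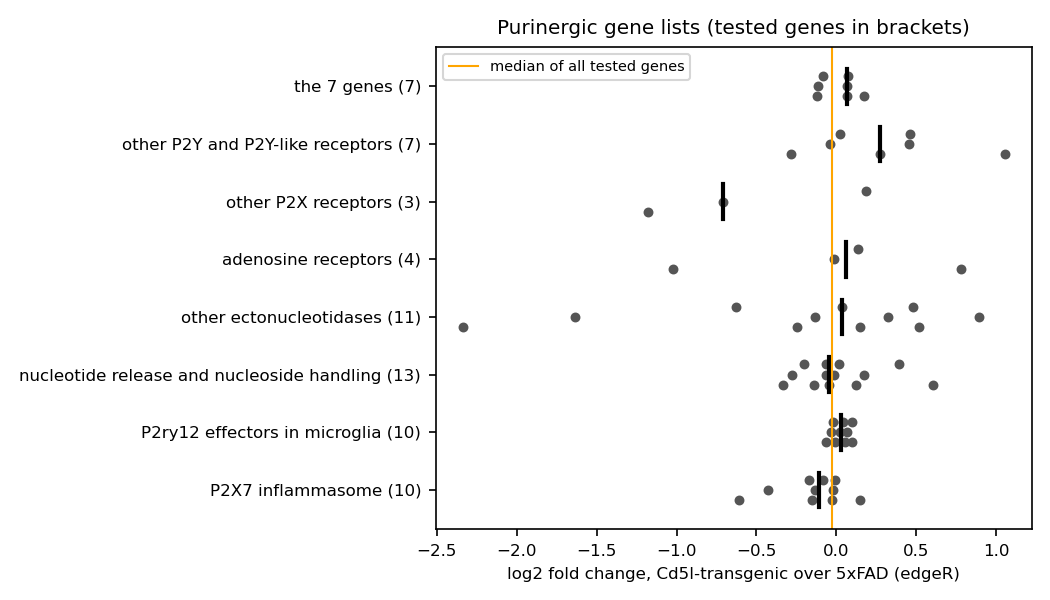
Log2 fold change, Cd5l-transgenic over 5xFAD, of each tested gene (points) in the purinergic gene lists, with the list median (black line) and the median of all tested genes at -0.027 (orange line). Effectors of P2RY12 lie between -0.064 and 0.10, while lists with scarce genes spread widely.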

How the data were processed

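RNA-seq counts of 5 libraries, 1 per mouse, were used as deposited by the authors: whole-number counts per Ensembl gene in 1 table, with no normalisation. Per the submitters' processing notes the build was GRCm39 (mm39). The sources used here do not give the aligner, counter, annotation release or strand setting. Columns were matched to samples by library name, and 1 name, of Cd5l-transgenic replicate 3, has its letter pairs in the other order. Gene length is as listed in the deposited table.

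Genes were filtered with filterByExpr, scaled by TMM and tested with the quasi-likelihood test of edgeR 4.0.16 (R 4.3.3) on genotype alone, coded Cd5l-transgenic minus 5xFAD, with Benjamini-Hochberg adjustment over 17724 genes and a threshold of 0.05. Standard errors and 95% intervals were derived from the F statistic. The scripts were tested on simulated counts. Alternatives were other scalings, DESeq2 1.42.0, limma-voom (limma 3.58.1), other filters, a block for the replicate number, and fits without single libraries or a pair of them. One count was worth 0.0282 to 0.0339 CPM, and intervals on counts cover counting error only. As mice are known only by their titles, p-values measure the spread between these samples. The 7 genes, the lists and the tests were chosen with earlier results of these data known. Named from each pathway list were the 3 genes of highest mean CPM and any past the threshold, besides overlapping genes and, for each of the 7, the 3 most alike in pattern. One gene of the microglial lists is not reported here and was left out of their sums, medians and scaling after the data were examined. Nt5e was named after its values were seen.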

Additional observations from a re-analysis of the deposited data

How the results depend on the processing

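None of the 7 genes passed under any of 15 alternatives, with adjusted p from 0.543 upward. Signs held for P2ry13, P2ry6, P2rx7 and Entpd1 under all 15. Without 5xFAD replicate 1 P2ry12 reversed to -0.15 and P2rx4 to 0.12, and Gpr34 reversed to 0.011 without 5xFAD replicate 3 and to 0.076 without that library and Cd5l-transgenic replicate 2 together. Over all fits with libraries left out P2ry12 ran from -0.15 to 0.39, P2rx4 from -0.34 to 0.12 and Gpr34 from -0.17 to 0.076. With library sizes set to 10 pan-microglial genes, a list shortened after seeing the data in place of the scaling first chosen, which is not reported here, P2ry12 reversed to -0.0047. The cause was not tested. Over all genes edgeR called 0 higher and 0 lower. DESeq2 called 9 higher, Cd5l among them, and 2 lower (Igfbp5 and Cxcr4). Without a low-count filter edgeR called 1 lower (Igfbp5). Leaving out 1 library gave 0 to 1 higher and 0 to 9 lower, with 9 lower without 5xFAD replicate 1 and 1 in each direction without 5xFAD replicate 3 (Rpl30-ps10 higher, Atp6v0d2 lower). Without 5xFAD replicate 3 and Cd5l-transgenic replicate 2 together it gave 36 higher and 58 lower. In each fit that leaves 1 5xFAD mouse, that mouse is assumed to vary like the others. With the replicate number as a block edgeR called 0 genes, and the median log2 fold change of the 7 genes was 0.11. Over all alternatives that median ran from -0.0047, with library sizes set to the pan-microglial genes, to 0.12, and so changed sign. Libraries of the same number correlated at 0.129 for replicate 1 and -0.24 for replicate 3 across genes in their deviations from the group means. As deviations of 2 5xFAD libraries from their mean mirror each other, these values cannot decide whether the numbers mark pairs. The main fit did not take them as pairs. Medians of the other P2X list, with 3 tested genes, ran from -0.78 to 0.19, and those of 4 further lists also changed sign: nucleotide release and nucleoside handling from -0.13 to 0.025, other P2Y and P2Y-like genes from -0.25 to 0.40, other ectonucleotidases from -0.13 to 0.14 and P2RY12 effectors from -0.019 to 0.096. Adenosine receptors ran from 0.0033 to 0.33 and the inflammasome list from -0.16 to -0.00019 without a change of sign. With 2 and 3 mice, changes inside the intervals given could not be resolved.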
